A study of Sus scrofa with 8 samples.

Results

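The genes of potassium, sodium and calcium channels of the voltage-gated channel families were examined in porcine induced pluripotent stem cells (piPSCs). Members were taken by pig Ensembl symbol: KCN followed by family letters and a number, SCN followed by a number and A or B, and the CACN symbols of the alpha1, alpha2delta, beta and gamma subunits. The rule gave 119 of the 24358 genes in the count table, of which 83 are potassium, 12 sodium and 24 calcium channel genes. The other 8 symbols of the rule that the reference table lists were not analysed here.

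The name covers more than voltage-gated pores. Among the potassium channel genes, 37 encode pore subunits of the Kv class, including electrically silent ones that modify other subunits. The 13 inward rectifiers (KCNJ) and 13 tandem pore-domain channels (KCNK) have no voltage sensor. The KCNN channels open with calcium, KCNMA1 opens with both calcium and voltage, and SCN7A is known as a sodium sensor and not as a voltage-gated channel. A further 14 potassium, 2 sodium and 4 alpha2delta, 4 beta and 8 gamma calcium channel genes encode auxiliary subunits. The members are therefore described by subunit class.

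As background, voltage-gated channels open when the membrane potential changes and let a selected ion pass. Sodium channels carry the rise of the action potential in nerve and muscle, calcium channels couple depolarization to transmitter release, contraction and gene expression, and potassium channels restore and set the resting potential. Auxiliary subunits move the pores to the membrane and tune their gating, and proliferating stem cells also carry transcripts of several of these families.

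The study asked how overexpressed IRF-1, an interferon regulatory transcription factor, changes the transcriptome of piPSCs. Both groups were DOX-hLIF-2i piPSCs, made from porcine embryonic fibroblasts with an OCT4-tdTomato reporter by doxycycline-inducible reprogramming vectors (FUW-OSKM with the FUW-M2rtTA transactivator), and kept in doxycycline with LIF and the 2 inhibitors CHIR99021 and PD0325901 (the labels name an LCDMV culture system). In replicates 1 and 3 the piggyBac vector was PB-CAG-IRF1-Flag, driven by the constitutive CAG promoter and inserted with the PCAGPBase transposase, and in replicates 6 and 8, the controls, it was PB-CAG-Flag without IRF1. Puromycin selected the transfected populations, and feeder cells were removed by letting them attach for 1 hour before RNA extraction. The genotype label reads overexpression for all 4 libraries, so the split follows the study's assignment of the numbered sample titles.

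Reads assigned to genes numbered 24923319 and 20858333 in the overexpressing libraries (replicates 1 and 3, in this order throughout) and 15925429 and 17097669 in the controls (replicates 6 and 8). IRF1 (ENSSSCG00000014277, chromosome 2, 134776124 to 134783819) checked this assignment, with 8206 and 5485 counts in the overexpressing and 55 and 56 in the control libraries. Its log2 fold change, here always overexpressing over control, was 6.46 (SE 0.21, edgeR quasi-likelihood test with Benjamini-Hochberg adjusted p = 3.65e-05). The libraries fell into the groups as assigned. Nothing in the labels says that replicates came from separate cultures, so the p-values measure the spread between these samples, which may be technical. With 2 libraries per group, exact permutation reaches a two-sided p of 0.333 at the lowest. The adjusted p-values therefore depend on variance information borrowed from other genes by edgeR.

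The pluripotent label was compared with its markers. Of 8 tested pluripotency genes, 0 were higher and 3 lower in the overexpressing cells in edgeR (0 higher at an unadjusted p under 0.05 with the fold limit, 0 in DESeq2 and 0 in limma-voom). Among all genes tested in edgeR, 8.61% were higher and 10.6% lower. The summed level of the list was 1492 and 1524 CPM (counts per 1000000 reads, with TMM scaling) in the overexpressing libraries and 1764 and 1933 CPM in the controls. Its largest part was DNMT3B, with 1034 and 1005 against 694 and 996 CPM (log2 fold change 0.27, not called). The sum therefore says little of the other genes. LIN28A, an RNA-binding protein of stem cells and the most abundant gene of the list per length, had 4071 and 3875 against 7905 and 6677 counts (log2 fold change -1.34, SE 0.172, edgeR adjusted p = 0.00146). ESRRB (log2 fold change -4.19) and CDH1 (-2.25) were also called lower. CDH1 ran from -3.21 to -1.66 with 1 library left out. DNMT3B, ESRRB and CDH1 were named after their values were seen. NANOG, a defining factor of pluripotency, had 8 and 11 against 5 and 9 counts and DPPA5 no more than 2 in any library, while POU5F1 and SOX2 were not analysed here.

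For feeder or fibroblast markers the sum was 1237 and 983 against 1345 and 1205 CPM. Most of it was VIM, an intermediate filament gene, with 1035 and 855 against 1104 and 1072 CPM (log2 fold change -0.20, adjusted p = 0.31 in edgeR), so the sum says little of the other genes. Of 8 tested, 2 were higher and 4 lower, beside 8.61% and 10.6% of all genes tested. These 2 and 4 genes were all named after their values were seen. PDGFRB, a growth factor receptor of mesenchymal cells, had 28 and 62 against 1966 and 978 counts (log2 fold change -5.49, SE 0.531, edgeR adjusted p = 0.000595), and between -6.32 and -4.79 with 1 library left out. S100A4, a calcium-binding protein of motile fibroblasts, had 39 and 89 against 291 and 211 counts (log2 fold change -2.40, SE 0.471, edgeR adjusted p = 0.00795), and between -3.28 and -1.83 with 1 library left out. COL1A1, a chain of collagen I, had 59 and 54 against 190 and 129 counts (log2 fold change -1.97, SE 0.352, edgeR adjusted p = 0.00547). DCN, a matrix proteoglycan, had 3 and 1 against 19 and 19 counts, a ratio of 13.1 (95% counting interval 4.71 to 50.5) in favour of the controls, and it was not called without overexpressing replicate 3 (fitted log2 fold change -3.18, against -4.38 without replicate 1). In the other direction, PRRX1, a mesenchymal transcription factor, had 1399 and 741 against 245 and 250 counts (log2 fold change 1.62, SE 0.243, edgeR adjusted p = 0.00269). COL1A2, the other collagen I chain, had 3458 and 1690 against 1006 and 699 counts (log2 fold change 1.08, SE 0.298, edgeR adjusted p = 0.0301), a call lost without overexpressing replicate 1 (0.65) and without control replicate 8 (0.78). COL5A1 and LUM had no more than 3 counts in any library. In these bulk samples, fewer cells of a type and less RNA per cell cannot be told apart.

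Channel transcripts were a small share of the RNA. Of all counts, the members together took 0.0758% and 0.0666% with overexpression, against 0.0591% and 0.0573% in controls. Per exon length, the potassium channel genes summed to 80.7 and 68.8 FPKM in the overexpressing libraries and 62.7 and 52.7 FPKM in the controls. The calcium channel genes summed to 76.0 and 69.1 against 44.8 and 45.6 FPKM, and the sodium channel genes to only 2.59 and 2.28 against 3.63 and 3.13 FPKM. Both overexpressing libraries lay above both controls for potassium and calcium, and below both for sodium. These sums were not tested.

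Of the 119 members, 75 had more than 3 counts in both libraries of at least 1 group. In 51 of these that held for both groups, in 15 for the overexpressing and in 9 for the control cells alone. The edgeR filter on low counts left 55 members to test among 13250 genes. Calls required adjusted p < 0.05 together with a fold change of 2 or more in either direction (log2 limit 1). Of the tested members, 18 (32.7%) were higher in the overexpressing cells, beside 8.61% of all genes tested, and 13 (23.6%) were lower, beside 10.6%. The median log2 fold change was 0.42 for the tested members and -0.0016 for all genes. When every gene above 3 counts in both libraries of a group was tested, 22 and 15 of 75 members were higher and lower, beside 8.68% and 10.2% of all genes. A gene read in 1 group alone can pass these filters only by differing, so these counts describe the members that passed. The groups did not overlap for 26 tested members with both overexpressing libraries above and 20 with both below (34.8% and 33.8% of all genes tested).

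By ion, 12 of 34 tested potassium channel genes were higher and 7 lower, with a median log2 fold change of 0.47. Among 15 tested calcium channel genes, 6 were higher and 3 lower (median 0.63). Among 6 tested sodium channel genes, 0 were higher and 3 lower (median -1.45, the same with SCN4A at its bound). For sodium, the count of higher genes in edgeR was also 0 at an unadjusted p under 0.05 with the same fold limit, and 0 in DESeq2 and limma-voom. Without overexpressing replicate 1, the counts were 7 higher and 4 lower for potassium, 4 and 1 for calcium, and 0 and 1 for sodium. Without control replicate 6 they were 12 and 4, 7 and 1, and 1 and 1. Without overexpressing replicate 3, the calcium counts were 6 and 1.

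**Figure D1:**
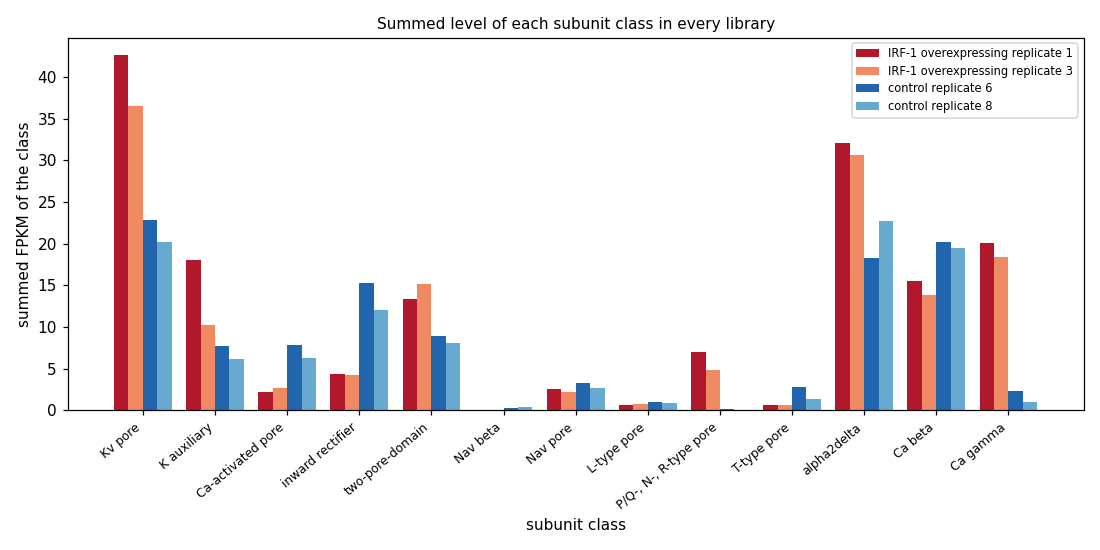
Summed FPKM of each subunit class (horizontal axis) in each of the 4 libraries (1 bar per library, linear axis from 0). Both overexpressing bars stand above both control bars for Kv pores, potassium auxiliary, tandem pore-domain, P/Q-, N- and R-type pores, alpha2delta and gamma subunits, and below both for calcium-activated and inward rectifier pores, sodium channel pores and beta subunits, L-type and T-type pores and calcium channel beta subunits. The class of P/Q-, N- and R-type pores holds CACNA1A and CACNA1E alone, with no N-type gene.

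**Figure D2:**
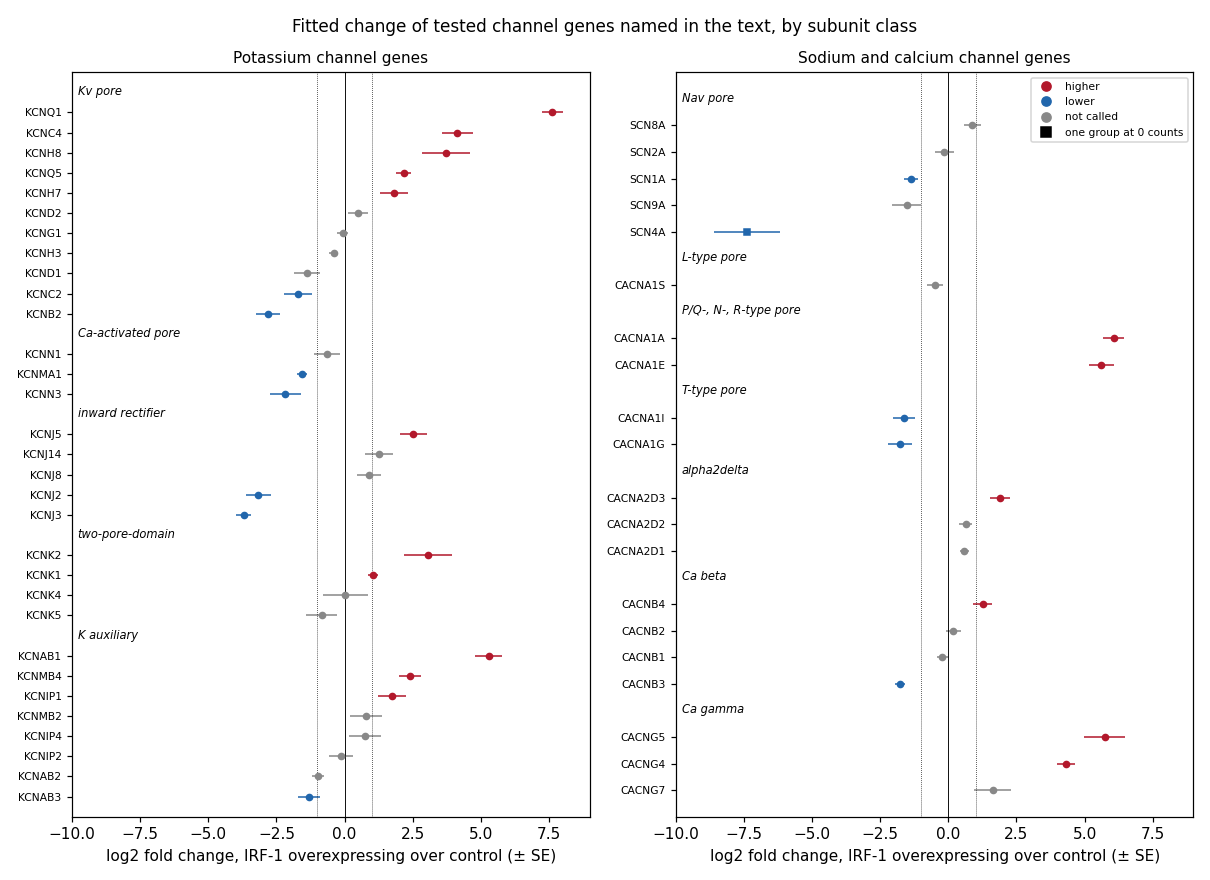
Fitted log2 fold change (horizontal axis, ± SE) of the tested members named in the text, grouped by subunit class, with called genes in red (higher) and blue (lower). Dotted lines mark the limit of 1 in either direction, and the square marks SCN4A, whose overexpressing libraries were at 0 counts, so that its plotted value is no bound.

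**Figure D3:**
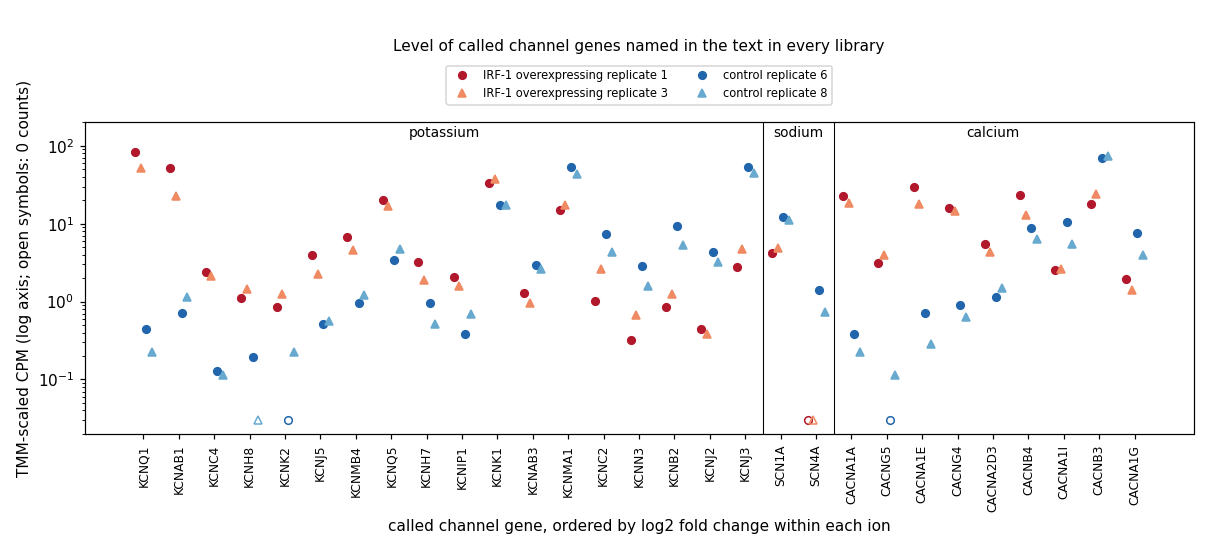
TMM-scaled CPM (log axis) of called members named in the text in each library, ordered by log2 fold change within each ion. Filled symbols are measured levels and open symbols at the bottom are libraries with 0 counts. For each gene shown, both overexpressing points lie on 1 side of both control points.

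The highest fitted change among the Kv pores was that of KCNQ1 (ENSSSCG00000039556, chromosome 2, 1675304 to 1989503), the slow delayed rectifier of heart and epithelia. It had 2043 and 1092 counts in the overexpressing and 7 and 4 in the control libraries, or 82.2 and 52.5 against 0.448 and 0.229 CPM. The overexpressing libraries stood far apart from the controls, and replicate 1 was the higher of the pair (log2 fold change 7.63, SE 0.39, edgeR adjusted p = 9.79e-05). With 17.4 ± 5.43 FPKM (SD, n = 2) in the overexpressing cells, KCNQ1 took 49.9% and 37.1% of the summed FPKM of the Kv pores there, against 0.506% and 0.292% in the controls. The KCNE subunits that pair with it in heart and gut were hardly read: KCNE1 had 0 and 1 against 5 and 1 counts, KCNE3 0 and 0 against 1 and 1 and KCNE4 0 and 2 against 0 and 0.

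KCNQ5, a subunit of the neuronal M current named here after its values were seen, had 20.0 and 16.8 against 3.39 and 4.74 CPM (log2 fold change 2.17, SE 0.273, edgeR adjusted p = 0.00137), with no overlap between the groups.

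KCNC4, a rapidly inactivating Kv channel, had 59 and 44 counts in the overexpressing and 2 and 2 in the control libraries. Since the control libraries were at the floor, the ratio of summed counts per counted read is given, which was 18.7 (95% counting interval 7.08 to 69.9), covering counting error only (edgeR adjusted p = 0.00209). KCNH8, an ether-a-go-go-like channel, had 28 and 30 against 3 and 0 counts, a ratio of 14.0 (95% counting interval 4.57 to 70.0) (edgeR adjusted p = 0.0165). Both were read almost entirely in the overexpressing cells. The KCNH8 call was lost without either overexpressing library, with adjusted p = 0.0519 without replicate 1 and 0.0613 without replicate 3 in edgeR. Its fitted log2 fold change of 3.72 fell to 2.71 when control replicate 8 was left out and rose to 7.76 when replicate 6 was, the latter against a control at 0. KCNH7, an erg-type channel named after its values were seen, had 3.26 and 1.87 against 0.959 and 0.514 CPM (log2 fold change 1.81, SE 0.523, edgeR adjusted p = 0.0356). It was not called without overexpressing replicate 1 (log2 fold change 1.36), without control replicate 8 (1.43) or with DESeq2 (adjusted p = 0.0517).

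Only KCNB2 and KCNC2 were called lower among the tested Kv pores. KCNB2, a slow delayed rectifier, had 0.845 and 1.25 CPM in the overexpressing and 9.4 and 5.31 CPM in the control libraries (log2 fold change -2.81, SE 0.439, edgeR adjusted p = 0.00321). KCNC2, a fast delayed rectifier of rapidly firing neurons, had 1.01 and 2.64 against 7.48 and 4.29 CPM (log2 fold change -1.70, SE 0.522, edgeR adjusted p = 0.0439). The groups were separate for both, by a smaller margin for KCNC2. The KCNC2 call was lost without overexpressing replicate 1 (log2 fold change -1.14) and without control replicate 6 (-1.25), and the value was -2.53 without overexpressing replicate 3.

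Of the control cells' own Kv transcripts, KCNH3, an ether-a-go-go-like channel of forebrain, was the most abundant per length. It had 6.32 ± 0.596 FPKM (SD, n = 2) in the overexpressing and 8.28 ± 0.476 FPKM in the control cells, and 28.9 and 33.0 against 42.2 and 38.9 CPM. It was not called (log2 fold change -0.39, SE 0.162, adjusted p = 0.113 in edgeR), although both overexpressing libraries lay below both controls. KCNH3 shares 426 exon bases with MCRS1 on the opposite strand. As a whole the tested Kv pores counted 6 higher, 2 lower and 6 not called of 14, and their summed FPKM was 42.6 and 36.5 against 22.9 and 20.2. Also tested and not called were KCND1 and KCND2 (A-type channels) and KCNG1 (a silent subunit), with log2 fold changes of -1.37, 0.51 and -0.07. KCND1 was called lower without a filter and without control replicate 8, and leaving out 1 library gave it log2 fold changes from -1.75 to -0.86.

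The inward rectifiers, which hold the resting potential near that of potassium, moved in both directions. KCNJ3 (ENSSSCG00000036078, chromosome 15, 62264268 to 62416294), a subunit of the G protein-gated channel of heart and brain, had 70 and 100 counts in the overexpressing and 840 and 794 in the control libraries, or 2.82 and 4.8 against 53.7 and 45.4 CPM. The controls were close to each other and far above the overexpressing libraries (log2 fold change -3.71, SE 0.279, edgeR adjusted p = 0.000254). KCNJ3 held 79.3% and 84.8% of the class's summed FPKM in the controls and 14.4% and 25.7% in the overexpressing libraries. The sum itself was 4.41 and 4.21 against 15.3 and 12.0 FPKM.

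KCNJ5, the cardiac partner of KCNJ3 in the G protein-gated channel, went the other way, with 4.02 and 2.26 against 0.512 and 0.571 CPM (log2 fold change 2.52, SE 0.502, edgeR adjusted p = 0.00849). Its overexpressing libraries were both above the controls, replicate 1 more so, and it was not called without that replicate (log2 fold change 2.06). The neuronal partners KCNJ6 (0 and 0 against 1 and 0 counts) and KCNJ9 (2 and 0 against 0 and 0) were under the floor. KCNJ2, the strong inward rectifier of heart, muscle and brain, had 0.443 and 0.384 CPM in the overexpressing and 4.35 and 3.2 CPM in the control libraries (log2 fold change -3.16, SE 0.456, edgeR adjusted p = 0.00231). The groups did not overlap. KCNJ8 and KCNJ14 were tested and not called, with log2 fold changes of 0.90 and 1.28. KCNJ14 was called higher without a filter and without control replicate 6, and with 1 library left out its log2 fold change ran from 0.66 to 2.35.

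Among the calcium-activated channels, 2 of 3 tested were lower. KCNMA1, the large-conductance channel opened by calcium and depolarization, had 15.0 and 17.5 CPM in the overexpressing and 53.5 and 43.2 CPM in the control libraries (log2 fold change -1.57, SE 0.189, edgeR adjusted p = 0.00116). All pairs of libraries were clearly separated between groups. KCNN3, a small-conductance channel, had 0.322 and 0.673 against 2.88 and 1.6 CPM (log2 fold change -2.17, SE 0.568, edgeR adjusted p = 0.0245). Its groups were separate too, but the call was lost without overexpressing replicate 1 (log2 fold change -1.71) and without control replicate 6 (-1.70), and the value was -2.76 without overexpressing replicate 3. KCNN1 was not called (log2 fold change -0.65), and the summed FPKM of the class was 2.24 and 2.67 against 7.82 and 6.23.

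Tandem pore-domain channels carry background potassium current. KCNK1, the most abundant potassium channel gene per length over the libraries, had 12.0 ± 1.02 FPKM (SD, n = 2) in the overexpressing and 5.82 ± 0.0107 FPKM in the control cells, and 33.4 and 37.7 against 17.3 and 17.3 CPM. Replicates of each group lay close together, and the groups were separate (log2 fold change 1.04, SE 0.174, edgeR adjusted p = 0.00422). This change lies at the fold limit, and the call was lost without overexpressing replicate 3 (log2 fold change 0.95). KCNK2, a mechanosensitive channel, had 21 and 26 counts against 0 and 4, a ratio of 8.52 (95% counting interval 3.12 to 32.6) (edgeR adjusted p = 0.0356). Both overexpressing libraries were above both controls, but the call was lost without either overexpressing library (adjusted p = 0.0894 without replicate 1 and 0.146 without replicate 3 in edgeR), without control replicate 6 (0.111) and with DESeq2 (0.07). Its fitted log2 fold change of 3.06 fell to 2.16 when control replicate 6 was left out and rose to 7.42 when replicate 8 was, the latter against a control at 0. KCNK4 and KCNK5 were not called, with log2 fold changes of 0.03 and -0.84. KCNK4 had 16 and 3 against 9 and 4 counts, and its log2 fold change ran from -0.49 to 0.81 with 1 library left out. The overexpressing libraries of KCNK5 were far apart (54 and 193 against 146 and 192 counts). It was called lower without overexpressing replicate 3, and its log2 fold change ran from -2.22 to -0.12 with 1 library left out.

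Auxiliary potassium channel subunits counted 3 higher and 1 lower of 8 tested. KCNAB1 (ENSSSCG00000025810, chromosome 13, 95981787 to 96374064), a cytoplasmic beta subunit of Shaker channels, had 51.4 and 22.5 CPM in the overexpressing and 0.704 and 1.14 CPM in the control libraries. Replicate 1 was well above replicate 3, and both were far above the controls (log2 fold change 5.30, SE 0.496, edgeR adjusted p = 0.000533). Without replicate 1 the log2 fold change was 4.60. Its exons share 2635 bases with SSR3 on the opposite strand, and since no strand setting was given the reads of that stretch are uncertain. SSR3 itself had 2379 and 2049 against 1264 and 1486 counts (log2 fold change 0.23, adjusted p = 0.241 in edgeR). The Shaker pores that KCNAB1 binds were near the floor: KCNA1 had 1 and 1 against 0 and 0 counts, KCNA2 had 0 in every library and KCNA4 had 9 and 14 against 0 and 0.

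KCNMB4, the neuronal beta subunit of KCNMA1, was higher while its pore was lower, with 6.8 and 4.56 against 0.959 and 1.2 CPM (log2 fold change 2.39, SE 0.404, edgeR adjusted p = 0.00444). The overexpressing libraries lay well above the controls. KCNIP1, a calcium sensor that binds A-type Kv channels, named after its values were seen, had 2.05 and 1.59 against 0.384 and 0.686 CPM (log2 fold change 1.74, SE 0.51, edgeR adjusted p = 0.0369). Its call was lost with DESeq2 (adjusted p = 0.108), and log2 fold changes were 1.56, 1.92 and 1.40 without overexpressing replicate 1, overexpressing replicate 3 or control replicate 6, none of them called. KCNAB3, a further beta subunit, had 1.29 and 0.961 against 2.94 and 2.63 CPM (log2 fold change -1.30, SE 0.409, edgeR adjusted p = 0.0481). With DESeq2 its adjusted p was 0.121, and the call did not hold with any library left out (log2 fold change between -1.51 and -1.10). Its exons share 729 bases with an unnamed gene on the same strand. KCNAB2 had an adjusted p of 0.0133 in edgeR but a log2 fold change of -0.98, short of the limit. It was called lower without overexpressing replicate 3 and without control replicate 8 (from -1.11 to -0.83 with 1 library left out), and it shares 1197 exon bases with CHD5 on the opposite strand. KCNIP2, KCNIP4 and KCNMB2 were not called either, with log2 fold changes of -0.12, 0.75 and 0.79. With 1 library left out, these ran from -0.52 to 0.24, from 0.33 to 1.42 and from -0.18 to 1.36, so the signs of KCNIP2 and KCNMB2 were not stable. KCNIP4 shares 2930 exon bases with PACRGL on the opposite strand, so its reads are uncertain in that stretch.

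Sodium channel transcripts were the scarcest of the 3 classes. SCN8A, the main sodium channel of axon initial segments, was the most abundant per length over the libraries, with 1.34 ± 0.235 FPKM (SD, n = 2) in the overexpressing and 0.727 ± 0.2 FPKM in the control cells. Its level was 10.9 and 8.46 against 6.27 and 4.23 CPM. The overexpressing libraries were both above the controls, but the gene was not called (log2 fold change 0.88, SE 0.312, adjusted p = 0.0701 in edgeR). Without control replicate 6 it was, at 1.19.

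SCN1A, a sodium channel of inhibitory neurons, stood the other way, with 4.26 and 4.85 CPM in the overexpressing and 12.1 and 11.3 CPM in the control libraries (log2 fold change -1.36, SE 0.262, edgeR adjusted p = 0.00743). The replicates of each group were close and the groups did not overlap, yet the call was lost without overexpressing replicate 1 (log2 fold change -1.25, adjusted p = 0.0621 in edgeR). In the controls SCN1A (1.38 FPKM) was above SCN8A (0.727 FPKM) per length, and in the overexpressing cells the order was the opposite (0.536 against 1.34 FPKM). The change of order was not tested.

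SCN4A (ENSSSCG00000017282, chromosome 12, 15001443 to 15049178), the sodium channel of skeletal muscle, had 0 and 0 counts in the overexpressing and 22 and 13 in the control libraries. Against the floor of 3 counts per library it was at least 8.12-fold lower (edgeR adjusted p = 0.00559). Without control replicate 6 its counts were too few to be tested.

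SCN2A, a sodium channel of excitatory neurons, overlapped between the groups with 2.98 and 2.69 against 3.33 and 2.97 CPM (log2 fold change -0.15, adjusted p = 0.784 in edgeR). SCN9A, known from pain-sensing neurons, had 22 and 8 against 32 and 30 counts and was not called (log2 fold change -1.53, adjusted p = 0.0647 in edgeR), but was without a filter (adjusted p = 0.0394). With 1 library left out, its log2 fold change ran from -2.25 to -1.07. The beta subunit SCN2B had 1 and 5 against 6 and 10 counts, above 3 in both controls, and did not pass the edgeR filter. When all genes above 3 counts were tested, it was not called (adjusted p = 0.154 in edgeR). The pores SCN3A, SCN7A, SCN10A and SCN11A had no more than 3 counts in any library. Each of SCN1A, SCN2A, SCN4A, SCN8A and SCN9A shares between 49 and 196 exon bases with short unnamed genes on the opposite strand.

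Skeletal muscle markers were read beside SCN4A. Of 5 tested, 1 was higher and 2 lower, beside 8.61% and 10.6% of all genes tested. The markers summed to 11.9 and 16.1 CPM in the overexpressing and 38.1 and 16.5 CPM in the control libraries. ACTA1, skeletal muscle actin and the most abundant of them per length, had 23 and 36 against 403 and 108 counts (log2 fold change -3.59, SE 0.689, edgeR adjusted p = 0.00729). Leaving out control replicate 6 gave -2.23 and leaving out replicate 8 gave -4.28, called in both cases. PAX7, a factor of muscle stem cells and the higher gene of the list, had 120 and 185 against 0 and 2 counts, a ratio of 111 (95% counting interval 30.4 to 918) with an edgeR adjusted p of 0.00102, and its fitted log2 fold change ran from 5.83 to 10.13 with 1 library left out, the highest against a control at 0. Other defining factors, MYOD1, MYF5 and MYF6, were at 0 in every library. Of 5 tested cardiac markers, 1 was higher and 3 lower, with a summed level of 36.8 and 58.2 against 212 and 129.7 CPM led by the Z-disc gene ACTN2 (757 and 1018 against 2715 and 1996 counts; log2 fold change -1.86, SE 0.276, edgeR adjusted p = 0.00255). The higher gene was NKX2-5, a defining cardiac factor, with 70 and 42 against 0 and 0 counts, at least 13.3-fold higher against the floor of 3 counts per library (edgeR adjusted p = 0.00191). PAX7 and NKX2-5 were named after their values were seen. The chamber myosin light chain genes MYL2 and MYL4 had no more than 2 counts in any library. The part of muscle-type transcripts in the sodium channel values was not tested.

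The class of P/Q-, N- and R-type pores held CACNA1A and CACNA1E alone, and both were tested and higher. The N-type pore gene CACNA1B was not analysed here. CACNA1A (ENSSSCG00000013754, chromosome 2, 65593911 to 65870456), the P/Q-type pore of nerve terminals, had 564 and 387 counts in the overexpressing and 6 and 4 in the control libraries, or 22.7 and 18.6 against 0.384 and 0.229 CPM. The groups were far apart (log2 fold change 6.06, SE 0.37, edgeR adjusted p = 0.000156). CACNA1E (ENSSSCG00000015543, chromosome 9, 122935861 to 123314318), the R-type pore, had 29.9 and 18.0 against 0.704 and 0.286 CPM, with overexpressing replicate 1 the higher of its pair (log2 fold change 5.61, SE 0.46, edgeR adjusted p = 0.000349). Without control replicate 6 the log2 fold change was 6.36. Together they summed to 6.96 and 4.83 FPKM in the overexpressing and 0.145 and 0.068 FPKM in the control libraries.

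The T-type pores, which open near the resting potential, counted 2 lower of 2 tested. CACNA1G had 1.93 and 1.39 CPM in the overexpressing and 7.68 and 3.94 CPM in the control libraries (log2 fold change -1.79, SE 0.44, edgeR adjusted p = 0.0193), and CACNA1I had 2.53 and 2.59 against 10.6 and 5.43 CPM (log2 fold change -1.64, SE 0.397, edgeR adjusted p = 0.0183). For both genes control replicate 6 was the highest library and the groups did not overlap. Neither call held without overexpressing replicate 1, overexpressing replicate 3 or control replicate 6. The log2 fold changes there were -2.04, -1.58 and -1.24 for CACNA1G and -1.61, -1.65 and -1.08 for CACNA1I. CACNA1H, the other T-type pore, had 9 and 5 against 7 and 3 counts, was not tested in the main comparison and shares 1324 exon bases with an unnamed gene on the opposite strand.

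L-type pores, the calcium channels of muscle contraction, had 0 called of 1 tested. CACNA1S, the skeletal muscle pore, had 91 and 82 against 86 and 91 counts, or 3.66 and 3.94 against 5.5 and 5.2 CPM (log2 fold change -0.49, SE 0.307, adjusted p = 0.271 in edgeR). CACNA1D had 6 and 12 against 6 and 2 counts and CACNA1F 3 and 3 against 1 and 1, and both were left untested. For CACNA1S, the L-type gene tested, edgeR gave no call in either direction, and 0 higher and 0 lower genes had an unadjusted p under 0.05. Testing all genes above 3 counts, which added CACNA1D, gave no call, and neither did DESeq2 or limma-voom.

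The alpha2delta genes, auxiliary calcium channel subunits, summed to 32.0 and 30.7 FPKM in the overexpressing and 18.3 and 22.7 FPKM in the control libraries. CACNA2D1, the drug target of gabapentin, was the most abundant calcium channel gene, with 16.9 ± 2.41 FPKM (SD, n = 2) in the overexpressing and 11.2 ± 0.246 FPKM in the control cells. Its log2 fold change of 0.59 (SE 0.153, adjusted p = 0.0241 in edgeR) was under the limit of 1. CACNA2D2, a cerebellar alpha2delta subunit, had 71.9 and 84.3 against 36.6 and 64.3 CPM and was not called (log2 fold change 0.63, adjusted p = 0.102 in edgeR). Its control replicates were far apart, and without control replicate 8 it was called higher (1.10).

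CACNA2D3, an alpha2delta subunit of brain, had 5.47 and 4.37 CPM in the overexpressing and 1.15 and 1.49 CPM in the control libraries (log2 fold change 1.89, SE 0.38, edgeR adjusted p = 0.00882). The groups were separate, and the call was lost without overexpressing replicate 1 (log2 fold change 1.73). CACNA2D4, the retinal alpha2delta subunit, had 0 and 0 against 13 and 4 counts, at least 4-fold lower against the floor of 3 counts per library. It was too low for the edgeR filter.

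The cytoplasmic beta subunits, which bring the pores to the membrane, moved in opposite directions. CACNB3, the most abundant of them per length over the libraries, had 17.7 and 24.2 CPM in the overexpressing and 70.2 and 74.5 CPM in the control libraries (log2 fold change -1.79, SE 0.188, edgeR adjusted p = 0.000773). CACNB4, a beta subunit of cerebellum and thalamus, had 23.5 and 12.9 against 8.83 and 6.46 CPM (log2 fold change 1.25, SE 0.333, edgeR adjusted p = 0.0262). Controls were the higher group for CACNB3 and the lower for CACNB4, without overlap. Without overexpressing replicate 1, CACNB4 was at 0.77 and not called. CACNB3 shares 3396 exon bases with DDX23 on the opposite strand, which had 2133 and 1899 against 1174 and 1608 counts, so its reads are uncertain in that stretch. CACNB1 and CACNB2 overlapped between the groups, with log2 fold changes of -0.23 and 0.17. Summed, the class had 15.5 and 13.8 against 20.2 and 19.5 FPKM.

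Gamma subunit genes encode muscle channel subunits (CACNG1, CACNG6) and proteins better known for trafficking AMPA-type glutamate receptors (CACNG2 to CACNG5, CACNG7, CACNG8). CACNG4 (ENSSSCG00000037202, chromosome 12, 13391117 to 13452174) had 15.7 and 14.7 CPM in the overexpressing and 0.895 and 0.629 CPM in the control libraries (log2 fold change 4.31, SE 0.332, edgeR adjusted p = 0.000266). It took 83.9% and 85.8% of the summed FPKM of the class in the overexpressing libraries. Its annotated exon length is 930 bases, against 4541 for CACNG5, which raises its share per length. By CPM, CACNG4 took 55.2% and 58.4% of the class there. CACNG5 had 78 and 83 counts against 0 and 2, a ratio of 58.4 (95% counting interval 15.9 to 486) (edgeR adjusted p = 0.00158). For CACNG5 the controls were at the floor, and for CACNG4 they were low but above it. The overexpressing replicates of each gene were alike. Without control replicate 8, where all its control counts lay, the fitted log2 fold change of CACNG5 (5.75 with all libraries) was 9.19, which rests on a control at 0, and without control replicate 6 it was 4.89.

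CACNG7, named after its values were seen, had 228 and 126 against 67 and 12 counts and was not called by edgeR (log2 fold change 1.63, adjusted p = 0.112). It was called by DESeq2 (adjusted p = 0.0293), by limma-voom (0.0442) and without a filter (0.00134 in edgeR), and without control replicate 6, where its log2 fold change was 3.46. Without control replicate 8 it was 0.84 and not called. The control libraries of this gene were far apart. CACNG3 and CACNG8 were at 0 in every library, CACNG2 had 1 and 0 against 1 and 0 counts, and CACNG1 and CACNG6 had no more than 9 in any library.

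Neuron markers were counted in the same libraries, where 8.61% of all genes tested were higher and 10.6% lower. Of 13 tested neuron markers, 7 were higher and 0 lower in edgeR (0 lower at an unadjusted p under 0.05 with the fold limit, and 0 in DESeq2 and 0 in limma-voom), with a median log2 fold change of 1.56. Their summed level was 862 and 451 CPM in the overexpressing and 219 and 251 CPM in the control libraries, so that overexpressing replicate 1 stood highest, as it did for KCNQ1, KCNAB1 and CACNA1E. STMN2, a microtubule regulator of growing axons and the most abundant per length, had 8124 and 3223 against 1137 and 1334 counts (log2 fold change 1.69, SE 0.313, edgeR adjusted p = 0.00636), and 1.07 without overexpressing replicate 1. RBFOX3, the marker of mature neurons, had 6 and 3 against 1 and 0 counts. The part of neuron-type transcripts in the channel values was not tested.

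Some members above 3 counts in both libraries of a group did not pass the edgeR filter, 20 in all. They are given by counts, and a test of all genes above 3 counts called 4 of them higher and 3 lower. KCNA4, an A-type channel, was read 9 and 14 times with overexpression and at 0 in both controls, at least 2.85-fold higher against the floor of 3 counts per library. KCNIP3, which encodes a calcium sensor also known as a transcriptional repressor, had 13 and 7 against 0, at least 2.37-fold higher, and shares 356 exon bases with PROM2 on the same strand. KCNH4, an ether-a-go-go-like channel (14 and 10 against 1 and 0 counts) had a ratio of 17.4 (95% counting interval 2.84 to 716). KCNK13, a background channel of microglia (19 and 10 against 1 and 0) had a ratio of 21.0 (95% counting interval 3.49 to 859). These 4 were called higher. Those called lower included CACNA2D4 and KCNJ4, an inward rectifier of brain with 0 and 1 against 12 and 8 counts and a ratio of 27.6 (95% counting interval 4.41 to 1143) in favour of the controls. The genes of this paragraph were chosen after their values were seen. Not called in that test were CACNA1D (6 and 12 against 6 and 2), CACNA1H (9 and 5 against 7 and 3), CACNG1 (9 and 5 against 3 and 2), CACNG6 (0 and 3 against 8 and 4), KCNA3 (4 and 8 against 2 and 0), KCNA7 (5 and 10 against 6 and 6), KCND3 (17 and 5 against 1 and 4), KCNH1 (5 and 5 against 1 and 0), KCNH2 (11 and 7 against 15 and 4), KCNK3 (9 and 4 against 2 and 0), KCNK7 (8 and 3 against 13 and 4), KCNN2 (3 and 6 against 4 and 4) and SCN2B (1 and 5 against 6 and 10 counts).

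The other 44 members did not exceed 3 counts in both libraries of either group, so they were too low to compare at this depth. Of these, 12 were at 0 in all libraries: KCNA2, KCNA10, KCNH6, KCNV2, KCNMB1, KCNU1, KCNJ1, KCNJ15, KCNK9, KCNK15, CACNG3 and CACNG8. A count of 3 corresponds to between 0.121 CPM (overexpressing replicate 1) and 0.192 CPM (control replicate 6), a floor that covers counting error only. The 32 with a count included CACNA1F, CACNG2, KCNA1, KCNC1, KCNF1, KCNG2, KCNG3, KCNH5, KCNQ3, KCNS1, KCNS2, KCNS3, KCNV1, KCNE1, KCNE3, KCNE4, KCNMB3, KCNN4, KCNJ10, KCNJ13, KCNJ16, KCNJ6, KCNJ9, KCNK10, KCNK16, KCNK17, KCNK6, SCN10A, SCN11A, SCN3A and SCN7A. Among them KCNH5, an ether-a-go-go channel, had 12 and 1 against 0 and 0 counts, nearly all in overexpressing replicate 1.

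Genes of a family often lie side by side, and 48 members sit in 18 stretches where neighbours are less than 1000000 bases apart. In the sodium channel stretch of chromosome 15, from 71717333 to 73026656, SCN1A was lower, SCN2A and SCN9A were not called, and SCN3A and SCN7A were under the floor. In the stretch of chromosome 12 from 13288516 to 13481634, CACNG5 and CACNG4 were both higher, and their neighbour CACNG1 had 9 and 5 against 3 and 2 counts. KCNJ1 and KCNJ5 are neighbours on chromosome 9, with KCNJ1 at 0 in every library. Of the neighbours KCNA3, KCNA2, KCNA10 and KCNC4 on chromosome 4, KCNC4 was the one tested in the main comparison, and it was higher.

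Channels and partners outside the rule were counted in lists by function. The counts are to be read beside the shares of all genes tested, 8.61% higher and 10.6% lower. Of 11 tested HCN, NALCN and cyclic nucleotide-gated channel genes, 3 were higher and 1 lower (median 0.48). HCN4, the pacemaker channel of the sinus node, had 44.9 and 34.8 against 3.01 and 2.17 CPM (log2 fold change 3.95, SE 0.262, edgeR adjusted p = 0.000195), and UNC79, a subunit of the sodium leak channel complex, had 88 and 39 against 1 and 3 counts, a ratio of 23.0 (95% counting interval 8.78 to 85.8) with an edgeR adjusted p of 0.00322. Both groups of libraries were far apart for HCN4 and UNC79. The fitted log2 fold change of UNC79 was 4.43, and 5.29 without control replicate 8. NALF1, a further subunit of the leak channel, was lower (2.57 and 2.4 against 5.76 and 4.63 CPM; log2 fold change -1.06, SE 0.336, edgeR adjusted p = 0.0496), a call lost with DESeq2 (adjusted p = 0.0798), and without overexpressing replicate 1, overexpressing replicate 3 or control replicate 6 (edgeR adjusted p = 0.199, 0.206 and 0.139).

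Of 7 tested partner subunits, 2 were higher and 1 lower (median 0.19). DPP10, which speeds A-type channels, had 207 and 115 against 10 and 6 counts (log2 fold change 3.82, SE 0.474, edgeR adjusted p = 0.0013), and PTPRZ1, a receptor phosphatase that binds sodium channels, had 2361 and 1188 against 86 and 120 counts (log2 fold change 3.62, SE 0.285, edgeR adjusted p = 0.000288). CNTN2, an axonal adhesion protein that clusters Shaker channels, was lower, with 28 and 21 against 51 and 62 counts (log2 fold change -1.66, SE 0.39, edgeR adjusted p = 0.0162), though not called without overexpressing replicate 1 (log2 fold change -1.73, edgeR adjusted p = 0.0968) or replicate 3 (-1.58, adjusted p = 0.0941). Of 10 tested sodium channel modulators and anchors, 1 was higher and 0 lower in edgeR (0 at an unadjusted p under 0.05 with the fold limit, and 0 in DESeq2 and 0 in limma-voom), with a median of -0.03. These counts were near the shares of all genes tested, 8.61% higher and 10.6% lower. The raised gene, NRCAM, an adhesion protein of the node of Ranvier, had 3909 and 2289 against 288 and 477 counts (log2 fold change 2.55, SE 0.248, edgeR adjusted p = 0.000598). Of 10 tested RGK and calmodulin pathway genes, 1 was higher and 0 lower in edgeR, again near those shares (1 lower at an unadjusted p under 0.05 with the fold limit, and 0 in DESeq2 and 0 in limma-voom), with a median of -0.15. The raised gene was GEM, an inhibitor of calcium channels, with 13.0 and 8.65 against 4.16 and 2.06 CPM (log2 fold change 1.81, SE 0.403, edgeR adjusted p = 0.0134), and its call was lost without overexpressing replicate 1 (edgeR adjusted p = 0.0815).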

How the data were processed

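RNA-seq counts of 4 libraries were used. The table the authors deposited holds integer read counts per Ensembl gene, not normalized, with exon coordinates and lengths. Per the submitters' processing notes and the study's methods, reads were mapped to Sus scrofa 11.1 with HISAT2 2.0.4 and counted with featureCounts 1.6.4. The annotation release, strand setting and treatment of multi-mapped reads are not given in the sources used here. The ChIP-seq libraries were not analysed here.

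Symbols came from the reference table of gene names (14692 of 24358 identifiers), and 116 of 116 members with a RefSeq symbol overlapped its Sscrofa11.1 coordinates. Channel classes follow symbol families. The members and lists were chosen with earlier results of these data known.

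Counts were tested with edgeR 4.0.16 in R 4.3.3 (TMM factors, filterByExpr by group, quasi-likelihood fit, Benjamini-Hochberg adjustment over 13250 genes). The SE of a log2 fold change equals its absolute value over sqrt(F). CPM and FPKM use library totals multiplied by the TMM factor (0.997, 0.998, 0.982 and 1.02 in library order), with SD taken over the 2 libraries of a group. A group with all libraries at 0 gives a bound against 3 counts per library, and exact binomial (Clopper-Pearson) 95% intervals cover counting error only. Counts of paired replicates spread wider than Poisson sampling allows, with a chi-square over its degrees of freedom of 17.9 (overexpressing) and 31.3 (control). The procedure was also run on simulated counts with the same dispersion for every gene. That run does not cover spread that differs between genes. DESeq2 1.42.0 and limma 3.58.1 served as alternatives, and tables and figures were made in Python 3.11.15 (numpy 2.4.6, pandas 2.3.3, matplotlib 3.10.9).

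The genes named were IRF1; sodium channel members above 3 counts in both libraries of a group; the 8 highest and 8 lowest called potassium and calcium members; the 3 most abundant tested members per ion and the most abundant per class by FPKM; up to 2 called genes per direction in each pathway list; the most abundant gene of marker lists by FPKM; and KCNQ5, KCNH7, KCNIP1 and CACNG7, named after their values were seen. Partner subunits, genomic neighbours, tested members not called and members near the floor are mentioned beside them. Some genes that met these rules are not reported here. The lists covered HCN, NALCN and cyclic nucleotide-gated channels, partner subunits, sodium channel modulators, RGK and calmodulin genes, ion pumps and exchangers, calcium release, chloride channels, REST and corepressors, and markers of pluripotent cells, neurons, glia, cardiac, skeletal and smooth muscle, fibroblasts and trophoblast.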

Additional observations from a re-analysis of the deposited data

How the results depend on the processing

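No paired analysis was possible because the groups share no replicate numbers. Scaling by DESeq2-type size factors, by upper quartile or by library size alone kept all 31 calls of the members. Of the 18 higher and 13 lower calls, DESeq2 kept 15 and 11, limma-voom 18 and 13, and the 2 other filters 18 and 12 each. When the change was tested against a log2 fold change of 1 with glmTreat, the counts were 611 higher and 603 lower for all genes (1141 higher and 1410 lower in the main comparison), 7 and 4 for potassium, 0 and 1 for sodium and 4 and 1 for calcium. This follows from the stricter hypothesis. Without a fold limit, 1842 of all genes were higher and 2054 lower. With each library left out in turn, the counts ran from 756 to 1156 higher and 874 to 1548 lower for all genes, 7 to 12 and 4 to 9 for potassium, 0 to 1 and 1 to 2 for sodium, and 4 to 7 and 1 to 3 for calcium. A group then holds 1 library, which is assumed to vary like the other group, and the cause of the differences between libraries was not tested. Of the 31 called members, 15 kept their call under all 13 alternatives, among them KCNQ1, KCNJ3, KCNMA1, KCNAB1, CACNA1A, CACNA1E, CACNB3 and CACNG4. No fitted log2 fold change of 61 tested genes that met the naming rules changed sign. Depth limits the 44 members not above 3 counts in both libraries of either group.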

Other observations

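Genes that move the same ions by other means were counted too, beside shares of 8.61% higher and 10.6% lower among all genes tested. Of 13 tested sodium-potassium ATPase, exchanger and calcium pump genes, 1 was higher and 0 lower in edgeR (1 lower at an unadjusted p under 0.05 with the fold limit, and 0 in DESeq2 and 0 in limma-voom; median log2 fold change 0.07). The raised gene was SLC8A3, a sodium-calcium exchanger, with 19.7 and 18.2 CPM in the overexpressing and 9.79 and 4.91 CPM in the control libraries (log2 fold change 1.37, SE 0.327, edgeR adjusted p = 0.0173). It was not called without overexpressing replicate 1 (adjusted p = 0.0669) or without control replicate 8, where its log2 fold change was 0.96. Of 8 tested calcium release genes, 1 was higher and 1 lower (median -0.22), and they were receptors of the same messenger, inositol trisphosphate. ITPR3 had 3.42 and 3.94 against 67.7 and 60.1 CPM (log2 fold change -4.12, SE 0.195, edgeR adjusted p = 9.79e-05), and ITPR2 had 69.8 and 44.1 against 20.6 and 24.4 CPM (log2 fold change 1.34, SE 0.239, edgeR adjusted p = 0.00544). The groups did not overlap for either receptor, and ITPR2 was at 0.98 without overexpressing replicate 1. ITPR3 shares 2461 exon bases with UQCC2 on the opposite strand, so its reads are uncertain in that stretch.

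Of 15 tested chloride channel genes, 1 was higher and 3 lower (median -0.24), beside 8.61% and 10.6% of all genes tested. CLCN4, an endosomal chloride-proton exchanger, had 54.3 and 49.9 against 22.3 and 27.3 CPM (log2 fold change 1.07, SE 0.171, edgeR adjusted p = 0.00352), and 0.93 without control replicate 6. BEST2, a calcium-activated chloride channel, had 1 and 2 against 35 and 48 counts, with a ratio of 38.1 (95% counting interval 12.6 to 189) in favour of the controls (fitted log2 fold change -5.11, and -5.74 without overexpressing replicate 3), and LRRC8C, a subunit of the volume-regulated channel, had 2.21 and 2.31 against 12.1 and 6.34 CPM (log2 fold change -2.02, SE 0.391, edgeR adjusted p = 0.00757). As background, REST represses many neuronal channel genes, and it was not analysed here. Of 7 tested corepressor genes, 0 were higher and 0 lower in edgeR (0 and 0 at an unadjusted p under 0.05 with the fold limit, and 0 in DESeq2 and in limma-voom), with log2 fold changes between -0.28 and 0.19.

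Markers of other cell types were read in the same libraries, where 8.61% of all genes tested were higher and 10.6% lower. Of 4 tested glial markers, 1 was higher and 3 lower, with a sum of 28.8 and 18.9 against 25.9 and 21.5 CPM. MBP, a myelin protein named after its values were seen, had 531 and 254 against 25 and 33 counts. Of 4 smooth muscle markers, 0 were higher and 2 lower in edgeR (0 higher at an unadjusted p under 0.05 with the fold limit, and 0 in DESeq2 and in limma-voom), with a sum of 6.64 and 9.8 against 99.1 and 41.1 CPM led by ACTA2 (38 and 68 against 1175 and 531 counts; log2 fold change -4.47, -5.09 without overexpressing replicate 3 and -3.68 without control replicate 6). Of 6 trophoblast markers, 1 was higher and 3 lower, with a sum of 310.0 and 1157 against 15588 and 9548 CPM. Most of it was the keratin KRT8, with 250 and 1014 against 12007 and 7485 CPM, so the sum says little of the other genes. KRT8 had 6213 and 21095 against 187722 and 130983 counts (log2 fold change -3.95, -3.25 without overexpressing replicate 1 and -5.28 without overexpressing replicate 3). The higher gene was the transcription factor TFAP2A, named after its values were seen, with a log2 fold change of 3.72 (from 3.48 to 3.95 with 1 library left out). CDX2 and HAND1 were at 0. The part of these marker genes in the channel values was not tested.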
